A study of Mus musculus with 23 samples.

Results

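Adgre1, Cd68, Itgax and Ctsd were taken by gene symbol from the deposited table of a NanoString nCounter mouse myeloid panel, and all 4 of 4 symbols were found among its 754 genes. They were read in the left lungs of 23 mice after 14 instillations, either of an extract of organic dust or of the PBS vehicle, called saline here. Fat-1 mice carry a Caenorhabditis elegans desaturase gene whose enzyme forms omega-3 out of omega-6 lipids, a step that wild-type (WT) mice lack. By extract code there were 3 Fat-1 female, 3 Fat-1 male, 4 WT female and 3 WT male dust lungs, and 2 Fat-1 female, 3 Fat-1 male, 2 WT female and 3 WT male saline lungs. Transgene promoter, strain background and age are not stated in the labels. Every lung, saline lungs included, had been lavaged before the lobe was taken, so cells washed out of the air spaces are missing from all groups. Lungs came from a pair of extraction days, called day 1 (12 lungs, 8 dust and 4 saline) and day 2 (11 lungs, 5 dust and 6 saline). A mouse has a single left lobe, so lungs stand for separate mice, and they are named by group, number and day.

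Macrophages are the resident phagocytes of the lung, and they take up particles and microbes, break them down in lysosomes and call in other leukocytes. Alveolar macrophages line the air spaces, while interstitial macrophages and their monocyte precursors lie in the tissue. Adgre1 encodes an adhesion G protein-coupled receptor on the surface of mouse macrophages that is the classical antigen for counting them, although eosinophils carry it too. Itgax encodes the alpha chain of an integrin (CD11c) that marks alveolar macrophages and dendritic cells in mouse lung. Cd68 encodes a heavily glycosylated protein of late endosomes and lysosomes in phagocytes, part of which cycles to the surface. Ctsd encodes cathepsin D, an aspartic protease that digests proteins in lysosomes and is made by most cell types, most of all by phagocytes.

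The promoters are shown because the 4 genes were all higher in dust lungs. The reference used held no promoter of Adgre1. Promoter sequences of Cd68, Itgax and Ctsd from RefSeq (GRCm38.p6) are printed here as the 250 bases before the start, 5′ to 3′ on the strand of the gene. Capitals mark matches, on either strand, to GAGGAA (the core bound by PU.1 and other Ets factors), CACGTG (an E-box, bound by TFEB among others) and TGANTCA (AP-1). None of these matches overlapped another.
Cd68 (chr11:69666171-69666420, minus strand): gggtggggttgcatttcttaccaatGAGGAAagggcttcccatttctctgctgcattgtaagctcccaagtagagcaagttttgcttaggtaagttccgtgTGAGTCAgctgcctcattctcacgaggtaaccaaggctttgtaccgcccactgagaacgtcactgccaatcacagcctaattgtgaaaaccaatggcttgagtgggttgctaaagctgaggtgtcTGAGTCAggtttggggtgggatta
Itgax (chr7:128129300-128129549, plus strand): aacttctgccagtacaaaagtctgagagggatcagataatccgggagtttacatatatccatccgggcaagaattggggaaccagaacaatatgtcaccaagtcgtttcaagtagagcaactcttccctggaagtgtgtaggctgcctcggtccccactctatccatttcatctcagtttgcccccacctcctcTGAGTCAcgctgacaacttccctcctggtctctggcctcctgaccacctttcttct
Ctsd (chr7:142387828-142388077, minus strand): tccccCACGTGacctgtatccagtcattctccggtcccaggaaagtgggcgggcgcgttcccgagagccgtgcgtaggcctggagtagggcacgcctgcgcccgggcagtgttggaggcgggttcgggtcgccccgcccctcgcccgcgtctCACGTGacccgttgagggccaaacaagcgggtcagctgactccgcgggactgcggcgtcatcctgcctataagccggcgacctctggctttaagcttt
The Cd68 promoter held 1 GAGGAA, 225 bases before the start, and 2 TGANTCA, 149 and 24 bases before it. Itgax held 1 TGANTCA at 56 bases. Ctsd held 2 CACGTG, at 245 and 98 bases, and neither of the other motifs. Of 32851 promoter windows of this length, 23.3% held GAGGAA, 6.02% held CACGTG and 6.75% held TGANTCA. At least 2 copies of CACGTG were in 0.429% of the windows, and at least 2 of TGANTCA in 0.338%. A match of letters is not a binding site.

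Values are normalized counts, that is, probe counts times 1 factor per lung, with low values set to 20. In lungs with a factor above 1, the lowest value above 20 stood for 20 probe counts. That value was 84.26 in Fat-1 male saline lung 1 of day 1 and 64.82 in WT female saline lung 1 of day 1. Normalized values between 20 and that value were thus hidden in such lungs. Recovered counts ran from 110453 to 812429 per lung. All 4 genes were above the floor in all 23 lungs. The lowest recovered count was 23 for Itgax, 78 for Adgre1, 94 for Cd68 and 1189 for Ctsd. Counting error alone is therefore at most 20.9% of an Itgax value and 2.90% of a Ctsd value. Several lungs stood apart in technical measures. Fat-1 female dust lung 2 of day 1 had a low positive-control total of 7964 counts. WT female saline lung 1 of day 2 had 46929 counts in its highest positive control. Fat-1 male dust lung 1 and WT male saline lung 1 of day 2 carried a saturation message, with positive-control totals of 5096 and 4351 counts and binding densities of 3.05 and 3.12 against 0.28 to 1.32 in the others. In 4 lungs the labels disagree with the extract code, which was used here. Title and characteristics call 3 of the code's Fat-1 lungs WT (Fat-1 female saline lung 1 and Fat-1 male dust lung 1 of day 1, and Fat-1 male saline lung 2 of day 2, also called female). The title alone of WT male saline lung 2 of day 2 gives WT female dust, so its exposure is in doubt. Tests are limma's on log2(value + 1), with Benjamini-Hochberg adjustment over 711 genes and an adjusted p under 0.05 as the threshold. Changes are dust minus saline on that log2 scale.

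All 4 genes rose in dust lungs. Adgre1, Cd68 and Itgax rose by 3.69-, 3.29- and 3.63-fold, and Ctsd by 2.52-fold, averaged over both genotypes and sexes. The background was high on this myeloid panel, since 43.3% of the genes tested passed as higher in dust and 9.99% as lower. In bulk lung RNA, more macrophages and more RNA of these genes per cell cannot be told apart.

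Adgre1 ran from 431 to 2981 normalized counts in dust lungs (median 1458, n = 13) and from 259 to 504 in saline lungs (median 369, n = 10). In Fat-1 lungs of day 1 it was at 1041, 2981, 919 and 919 normalized counts after dust, against 393 and 329 after saline. In WT lungs of day 1 it was at 2211, 2343, 2091 and 1955 after dust, against 473 and 259 after saline. Every dust lung of day 1 was thus above every saline lung of that day, and the 3 lower Fat-1 values stood together well under the 4 WT values. On day 2 the Fat-1 lungs gave 1317 and 1458 after dust and 329, 451 and 361 after saline. The WT lungs of day 2 gave 1459, 431 and 1045 after dust and 377, 504 and 331 after saline. WT female dust lung 2 of day 2, at 431, was the only dust lung among the saline values, so 12 of 13 dust lungs were above the highest saline lung. At least 12 of 13 dust lungs were above it for 12.0% of the genes tested. The change was 1.88 (SE 0.27, 95% interval 1.32 to 2.45, limma adjusted p = 4.0e-05).

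Itgax ran from 144 to 917 normalized counts in dust lungs (median 354, n = 13) and from 65.8 to 187 in saline lungs (median 98.7, n = 10). On day 1 the Fat-1 lungs were at 354, 917, 317 and 343 after dust, against 112 and 101 after saline. The WT lungs of day 1 were at 399, 392, 400.05 and 384 after dust, against 74.5 and 65.8 after saline. The 4 WT dust lungs of day 1 had a mean of 394 ± 7.37 (SD), a spread far smaller than that of the Fat-1 dust lungs of the same day, 483 ± 290.1 (SD, n = 4). That wide spread came from Fat-1 female dust lung 2, the highest of all 23 lungs. On day 2 the Fat-1 lungs were at 327 and 458 after dust and 90.6, 109.7 and 129.95 after saline. WT values of day 2 were 346, 144 and 345 after dust and 187, 96.2 and 83.2 after saline. As for Adgre1, 12 of 13 dust lungs were above the highest saline lung, and WT female dust lung 2 of day 2 was the exception. The change was 1.86 (SE 0.21, 95% interval 1.41 to 2.31, limma adjusted p = 6.7e-06).

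Cd68 ran from 679.7 to 3475 normalized counts in dust lungs (median 1673, n = 13) and from 396 to 739 in saline lungs (median 550.3, n = 10). On day 1 the Fat-1 lungs were at 1371, 3475, 1542 and 1287 after dust, against 543 and 396 after saline. The WT lungs of day 1 were at 2530.2, 2783, 2699 and 2348 after dust, against 739 and 406 after saline. Again 3 of the 4 Fat-1 dust lungs were below all 4 WT dust lungs of that day, and Fat-1 female dust lung 2 was above them. On day 2 the Fat-1 lungs were at 1314 and 2382 after dust and 471, 648 and 629 after saline. On that day WT lungs were at 1673, 679.7 and 1280.4 after dust and 699, 557 and 402 after saline. The change was 1.72 (SE 0.24, 95% interval 1.21 to 2.23, limma adjusted p = 3.6e-05), and 12 of 13 dust lungs were above the highest saline lung.

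Ctsd ran from 8045 to 23928 normalized counts in dust lungs (median 15262, n = 13) and from 4851 to 7651 in saline lungs (median 6311, n = 10). On day 1 the Fat-1 lungs were at 12188, 13653, 14391 and 11485 after dust, against 6534.5 and 5009 after saline. The WT lungs of day 1 were at 23805, 23928, 22104 and 20476 after dust, against 6715 and 5846 after saline. The 4 Fat-1 dust lungs of that day lay together well below the 4 WT dust lungs, while the saline lungs overlapped. On day 2 the Fat-1 lungs were at 15262 and 17523 after dust and 5581, 7651 and 7358 after saline. The WT lungs of day 2 were at 21601, 8045 and 11861 after dust and 6088, 7234 and 4851 after saline. Ctsd was the gene whose groups did not overlap: all 13 dust lungs were above the highest saline lung, as held for 3.52% of the genes tested. The change was 1.33 (SE 0.18, 95% interval 0.95 to 1.72, limma adjusted p = 2.6e-05).

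**Figure D1:**
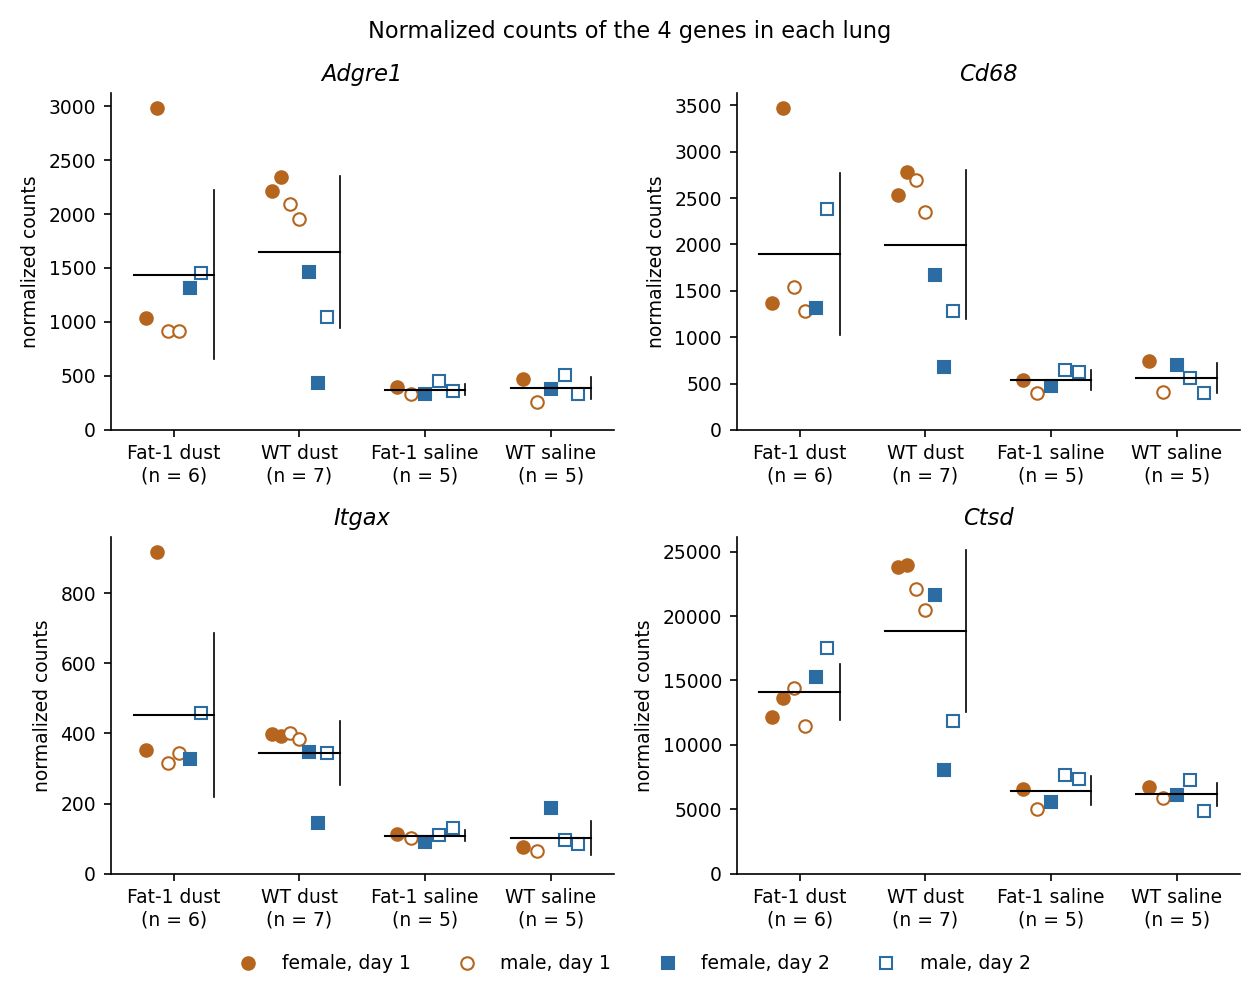
Normalized counts (linear axes from 0) of the 4 genes in each of the 23 lungs, by genotype and exposure, with shape and colour for the day and filled points for females. Horizontal lines are group means and vertical lines ± 1 SD. Dust groups sit above saline groups in every panel, with WT female dust lung 2 of day 2 (431 for Adgre1) near the saline level.

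The rise held without the lungs that stood apart. Leaving out WT female saline lung 1 of day 2 and Fat-1 female dust lung 2 of day 1, the changes were 1.73 for Adgre1, 1.59 for Cd68, 1.91 for Itgax and 1.32 for Ctsd. Without WT female dust lung 2 of day 2 they were 2.02, 1.83, 1.95 and 1.43 in the same order of genes. Without the 4 lungs whose labels disagree they were 1.92, 1.76, 1.96 and 1.35. The size depended on the scaling, since the median of all genes shifted by 0.26. Centring each lung on its median gene gave 1.49, 1.33, 1.47 and 0.94, and all 4 still passed (highest limma adjusted p = 5.3e-05).

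The rise passed in each genotype taken alone. In Fat-1 lungs Adgre1 changed by 1.83, Cd68 by 1.74, Itgax by 1.96 and Ctsd by 1.15 (limma adjusted p from 0.000818 to 0.0047), where 32.2% of the genes tested passed as higher. In WT lungs the changes were 1.94, 1.69, 1.76 and 1.52 in that order (limma adjusted p from 0.000798 to 0.00168), where 30.7% passed as higher. The dust response did not differ detectably between the genotypes. Fat-1 minus WT, it was −0.11 for Adgre1 (95% interval −1.24 to 1.02), 0.05 for Cd68 (−0.97 to 1.07), 0.19 for Itgax (−0.71 to 1.10) and −0.37 for Ctsd (−1.14 to 0.39), with limma adjusted p = 0.999 for each. Of all genes tested 0% passed, with 21 genes at an unadjusted p under 0.05.

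**Figure D2:**
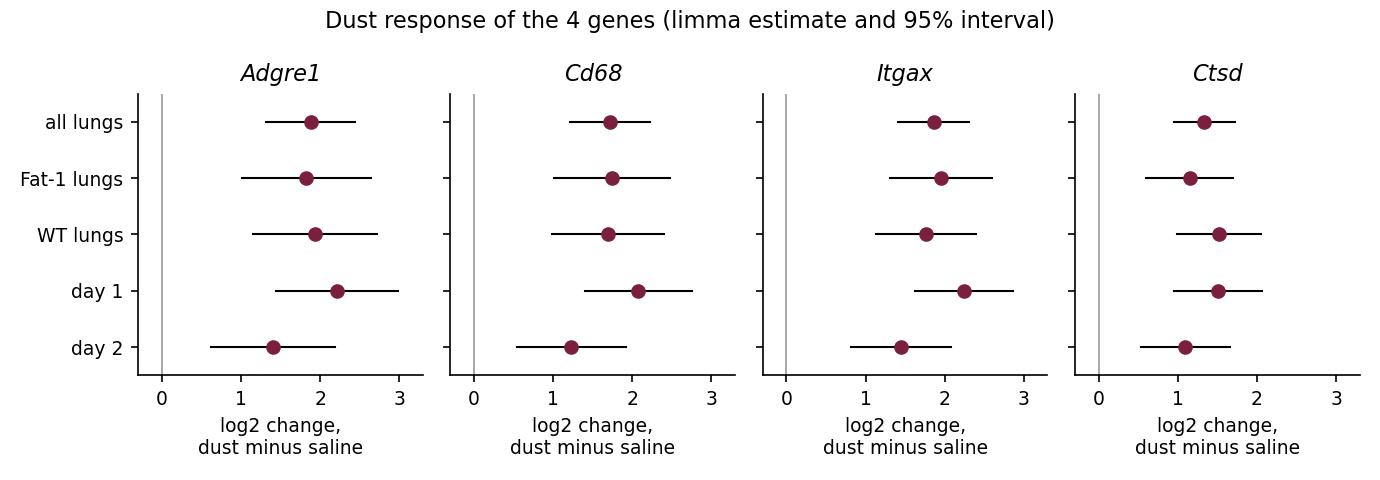
Log2 change of each gene, dust minus saline, over all lungs, in each genotype and on each day, with points for the limma estimate and lines for its 95% interval. The intervals of all 20 estimates lie above 0. The day 1 estimates (1.51 to 2.25) are above the day 2 estimates (1.10 to 1.45) for each gene.

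Neither genotype nor sex gave a call for any of the 4 genes. In dust lungs Fat-1 minus WT was −0.17 for Adgre1, −0.06 for Cd68, 0.32 for Itgax and −0.34 for Ctsd (limma adjusted p from 0.979 to 0.993). The widest of these intervals was that of Adgre1, −0.91 to 0.57. In saline lungs the differences were −0.06, −0.12, 0.12 and 0.04 in the same order. Limma called 0% of all genes in either comparison, with 22 genes in dust lungs and 10 in saline lungs at an unadjusted p under 0.05. Female minus male in dust lungs was 0.15 for Adgre1, −0.06 for Cd68, 0.01 for Itgax and −0.02 for Ctsd. The difference of the dust response, female minus male, was 0.05, −0.34, −0.18 and −0.02. Sex also called 0% of genes, with 23 and 14 genes at an unadjusted p under 0.05 in these 2 comparisons.

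Mean levels in dust lungs were lower on day 2 than on day 1, but the differences did not pass the test. Day 2 minus day 1 in dust lungs was −0.66 for Adgre1 (95% interval −1.39 to 0.06, limma adjusted p = 0.185) and −0.65 for Cd68 (−1.29 to −0.01, limma adjusted p = 0.152). It was −0.39 for Itgax and −0.32 for Ctsd (limma adjusted p = 0.338 and 0.374). In saline lungs it was 0.15, 0.20, 0.41 and 0.09 for Adgre1, Cd68, Itgax and Ctsd. Of all genes, 6.33% passed as lower and 0.563% as higher on day 2 in dust lungs. A single lung decided the call for 2 of the genes. Without Fat-1 male dust lung 1 of day 2, which carried a saturation message, the difference was −1.04 for Adgre1 (limma adjusted p = 0.0231) and −1.05 for Cd68 (limma adjusted p = 0.0071). With the cartridge as a block Cd68 also passed, at −0.98 (limma adjusted p = 0.0496).

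The dust response itself was larger on day 1, by values that did not pass the test of the difference. On day 1 it was 2.22 for Adgre1, 2.08 for Cd68, 2.25 for Itgax and 1.51 for Ctsd (limma adjusted p from 2.2e-05 to 0.000202), where 41.5% of the genes tested passed as higher. On day 2 it was 1.41, 1.23, 1.45 and 1.10 (limma adjusted p from 0.00948 to 0.0272), where 9.28% passed as higher. The difference between the days was −0.81 for Adgre1, −0.85 for Cd68, −0.80 for Itgax and −0.41 for Ctsd (limma adjusted p from 0.305 to 0.507), and 0.844% of all genes passed as lower. For Cd68 it was −1.25 without Fat-1 male dust lung 1 of day 2 (limma adjusted p = 0.0273). Depth moved with exposure on day 1, with 276331 to 812429 recovered counts in dust lungs and 110453 to 259493 in saline lungs. All 4 saline lungs of day 1 lay on the same cartridge, with 6 of the 8 dust lungs. On day 2 depth overlapped, 264771 to 795975 against 246379 to 793974. The part of depth and cartridge in the larger response of day 1 was not tested.

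The calls of day 2 rested on few lungs, while the rise kept its direction in every fit given here. Without Fat-1 female saline lung 1 of day 2 the changes were 1.30 for Adgre1, 1.12 for Cd68, 1.25 for Itgax and 1.01 for Ctsd, close to those with it, but none of the 4 passed (limma adjusted p = 0.126, 0.130, 0.0775 and 0.103). Without Fat-1 male dust lung 1 of day 2 the changes were 1.03 for Adgre1, 0.83 for Cd68 and 0.88 for Ctsd, and these 3 did not pass (limma adjusted p from 0.110 to 0.167). Adgre1 also did not pass without WT male saline lung 2 (1.38), Fat-1 female dust lung 1 (1.34), Fat-1 male saline lung 2 (1.38), WT female dust lung 1 (1.29), WT female saline lung 1 (1.28) or WT male dust lung 1 (1.49) of day 2. Cd68 did not pass without WT male saline lung 2 (1.18), WT female dust lung 1 (1.15), WT female saline lung 1 (1.15) or WT male dust lung 1 (1.32) of that day. Ctsd did not pass without Fat-1 female dust lung 1 (0.94), WT female dust lung 1 (0.98) or WT female saline lung 1 (1.03) of that day. Without both lungs that carried a saturation message none of the 4 passed (changes of 0.88 to 1.23, limma adjusted p from 0.0758 to 0.153). Without the 4 lungs whose labels disagree none passed either, at 1.35 for Adgre1, 1.22 for Cd68, 1.45 for Itgax and 1.05 for Ctsd (limma adjusted p from 0.0701 to 0.153). Without the 2 lungs with unusual positive controls Adgre1 was at 1.26 and Cd68 at 1.14 and neither passed (limma adjusted p = 0.0566 and 0.0501). On day 1 every value without 1 lung passed, the highest limma adjusted p being 0.00236 for Ctsd. Fitted on the 11 lungs of day 2 alone, the 4 changes were 1.20 to 1.57 and did not pass (limma adjusted p from 0.0724 to 0.0978).

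Ctsd separated the genotypes among the dust lungs of day 1, a comparison made after the values were seen. Its 4 Fat-1 values had a mean of 12929 ± 1329 and its 4 WT values 22578 ± 1630.3 (SD). All 4 Fat-1 lungs were below the lowest WT lung, as held for 6.75% of the genes tested, while 2.95% had all 4 Fat-1 lungs above the highest WT lung. Fat-1 minus WT on day 1 was −0.81 for Ctsd (SE 0.25), which did not pass (limma adjusted p = 0.169, unadjusted 0.0064). It was −0.75 for Adgre1, −0.56 for Cd68 and 0.14 for Itgax. On day 2 the same difference was 0.39 for Ctsd, 0.66 for Adgre1, 0.63 for Cd68 and 0.54 for Itgax, from 2 Fat-1 and 3 WT lungs. The change of the genotype difference between the days was 1.20 for Ctsd, which did not pass (limma adjusted p = 0.259). Depth and cartridge moved with the genotype on day 1: the Fat-1 dust lungs had 276331 to 403602 recovered counts and all 4 lay on the same cartridge, while the WT dust lungs had 554066 to 812429 and lay 2 on each. With the cartridge as a block the Ctsd difference was −0.59, and on the housekeeping scale −0.67. With groups taken from the characteristics, which call Fat-1 male dust lung 1 of day 1 WT, it was −0.76. The part of depth and cartridge in the difference was not tested.

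By genotype, exposure and day, the 4 dust groups were above the 4 saline groups in mean for all 4 genes. How many other genes tested have this order, or neighbouring groups without overlap, was not counted. WT dust of day 1 had the highest mean of Adgre1 (2150.3 ± 166), Cd68 (2590.04 ± 193) and Ctsd (SD, n = 4), and Fat-1 dust of day 1 that of Itgax. The values of neighbours in the order overlapped throughout for Adgre1. For Cd68 they overlapped except between the lowest dust group, WT of day 2 (1211 ± 500.4), and the highest saline group, Fat-1 of day 2 (583 ± 97.5, SD, n = 3 each). Even so, a WT saline lung of day 1, at 739, was above the lowest dust lung, at 679.7. For Itgax the neighbours that did not overlap were the 2 lowest, Fat-1 saline of day 1 (106 ± 7.50) and WT saline of day 1 (70.2 ± 6.16, SD, n = 2 each). That gap rests on few Itgax probe counts, 58 and 24 in the Fat-1 lungs and 23 and 29 in the WT lungs. Counting error alone is up to 20.9% of an Itgax value. In Fat-1 male saline lung 1 of day 1, with 24 counts, a value below 84.26 would have been set to the floor. Both WT values, 74.5 and 65.8, lie below that cut, so no conclusion is drawn from this gap. For Ctsd, WT dust of day 1 was clear of Fat-1 dust of day 2 (16393 ± 1599, SD, n = 2), and Fat-1 dust of day 1 was clear of the highest saline group, Fat-1 of day 2 (6863 ± 1120.3, SD, n = 3).

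The 4 genes did not change in fixed proportion. A ratio of genes within a lung is free of the scale factor of that lung. Relative to Ctsd, Adgre1 was higher in dust lungs than in saline lungs, with a mean log2 ratio of −3.51 ± 0.47 (SD, n = 13) against −4.06 ± 0.22 (SD, n = 10). The difference of 0.54 is 1.46-fold and passed a two-sided permutation test over lungs (adjusted p = 0.00216 over 6 pairs, 12 of 13 dust lungs above the saline median). Cd68 over Ctsd differed by 0.39 (permutation adjusted p = 0.0183, 12 of 13 above) and Itgax over Ctsd by 0.52 (permutation adjusted p = 0.0324, 11 of 13 above). Among the surface and endosomal genes themselves, Adgre1 over Cd68 differed by 0.15, Adgre1 over Itgax by 0.03 and Cd68 over Itgax by −0.13 (permutation adjusted p from 0.201 to 0.889). The ratios to Ctsd were largest in Fat-1 female dust lung 2 of day 1, which was highest for the other 3 genes and among the lower dust lungs for Ctsd. Without it and WT female saline lung 1 of day 2, the differences were 0.44, 0.34 and 0.49 for Adgre1, Cd68 and Itgax over Ctsd, each with permutation adjusted p = 0.0064. On day 1 they were 0.71, 0.57 and 0.75 (exact permutation adjusted p = 0.0364, 0.0364 and 0.105). On day 2 they were 0.29, 0.14 and 0.30 (exact permutation adjusted p from 0.485 to 0.530).

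**Figure D3:**
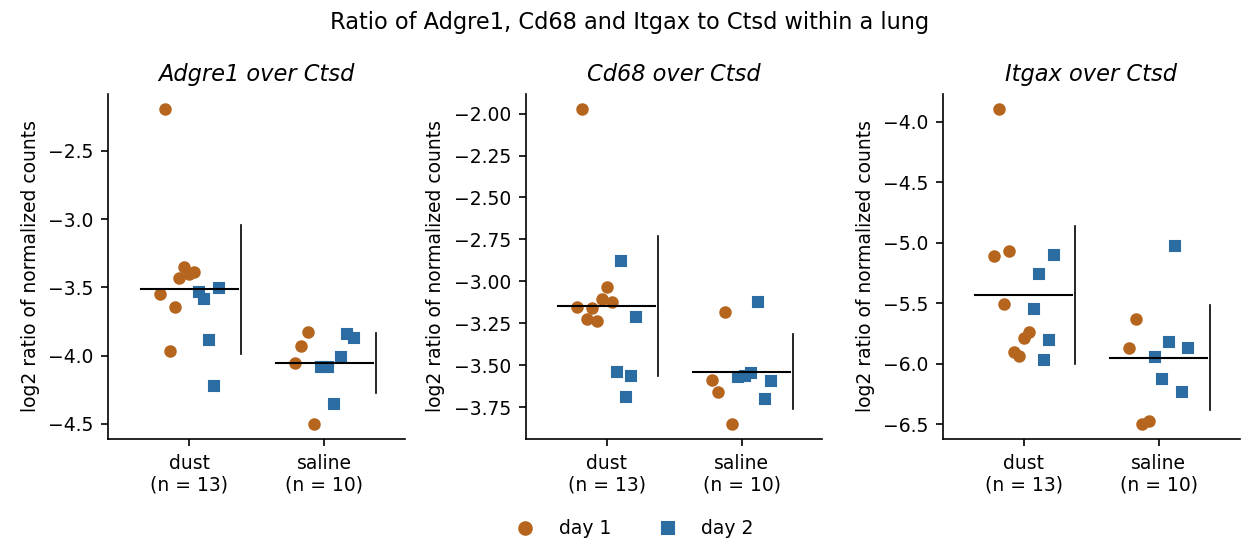
Log2 ratio of Adgre1, Cd68 and Itgax to Ctsd in each lung, dust left of saline, with shape and colour for the day, horizontal lines for means and vertical lines for ± 1 SD. The dust mean is above the saline mean in each panel, by 0.54, 0.39 and 0.52. The highest point of each dust group is Fat-1 female dust lung 2 of day 1.

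Ratios with Itgax also set the genotypes apart on day 1, again seen in the data and not tested. Among the dust lungs of day 1 the log2 ratio of Adgre1 over Itgax ran from 1.42 to 1.70 in 4 Fat-1 lungs and from 2.35 to 2.58 in 4 WT lungs. That of Cd68 over Itgax ran from 1.91 to 2.28 in Fat-1 lungs and from 2.61 to 2.83 in WT lungs, so neither ratio overlapped between the genotypes. For Itgax over Ctsd in the same lungs it ran from −5.51 to −3.90 in 4 Fat-1 lungs and from −5.93 to −5.74 in 4 WT lungs. In saline lungs of day 1 it ran from −5.87 to −5.63 in 2 Fat-1 lungs and from −6.49 to −6.47 in 2 WT lungs. In these saline lungs Adgre1 over Itgax did not overlap either, 1.70 to 1.81 in Fat-1 against 1.98 to 2.67 in WT lungs. Nor did Cd68 over Itgax, 1.97 to 2.28 against 2.63 to 3.31. All of these saline ratios rest on few Itgax probe counts, 58 and 24 in Fat-1 and 23 and 29 in WT lungs. On day 2 the ranges of Itgax over Ctsd overlapped, −5.55 to −5.26 against −5.96 to −5.10 after dust and −6.12 to −5.82 against −6.23 to −5.02 after saline, Fat-1 against WT. After dust on day 2, those of Adgre1 over Itgax (1.67 to 2.01 against 1.58 to 2.08) and Cd68 over Itgax (2.01 to 2.38 against 1.89 to 2.27) overlapped too. Fat-1 male dust lung 1 of day 1, called WT by title and characteristics, was at 1.54 for Adgre1 over Itgax, between the values of other Fat-1 lungs. It was at 2.28 for Cd68 over Itgax and −5.51 for Itgax over Ctsd, in both the Fat-1 lung nearest the WT range. Which label is right was not tested. How many other gene pairs split the genotypes on day 1 was not counted.

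Within the 13 dust lungs the genes rose and fell together to unequal degrees. Over 6 pairs, Adgre1 and Cd68 were the closest (Pearson r = 0.96, permutation p = 2e-05, adjusted 0.00012; Spearman rho = 0.90, p = 0.00017). Leaving out the 2 lungs farthest from the Adgre1 median gave r = 0.90. Itgax had r = 0.84 with Adgre1 and 0.85 with Cd68 (rho = 0.84 and 0.86, permutation adjusted p of r = 0.00038 and 0.00012), and 0.66 and 0.81 without the 2 farthest lungs. Ctsd had r = 0.79 with Adgre1 and 0.76 with Cd68 (rho = 0.74 and 0.75, permutation adjusted p of r = 0.00205 and 0.00286), and 0.93 and 0.88 without the 2 farthest lungs. Itgax and Ctsd did not pass (r = 0.42, rho = 0.54, permutation adjusted p of r = 0.135; r = 0.55 without the 2 farthest lungs). In the 8 dust lungs of day 1, Adgre1 and Cd68 kept r = 0.98 (exact permutation adjusted p = 0.00223), while Adgre1 and Ctsd were at r = 0.65 and Itgax and Ctsd at −0.08, neither passing. The lungs share scaling, and after centring each on its median Itgax had r = 0.74 with Adgre1 and 0.75 with Cd68 (permutation adjusted p of r = 0.0145 for each), with rho of 0.39 and 0.35. These r rest on the farthest lungs, since without the 2 farthest they were 0.05 and 0.10, while Adgre1 and Cd68 kept a rho of 0.91. In the 10 saline lungs no pair passed, the highest r being 0.77 for Cd68 and Ctsd (rho = 0.75, permutation adjusted p of r = 0.0535).

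**Figure D4:**
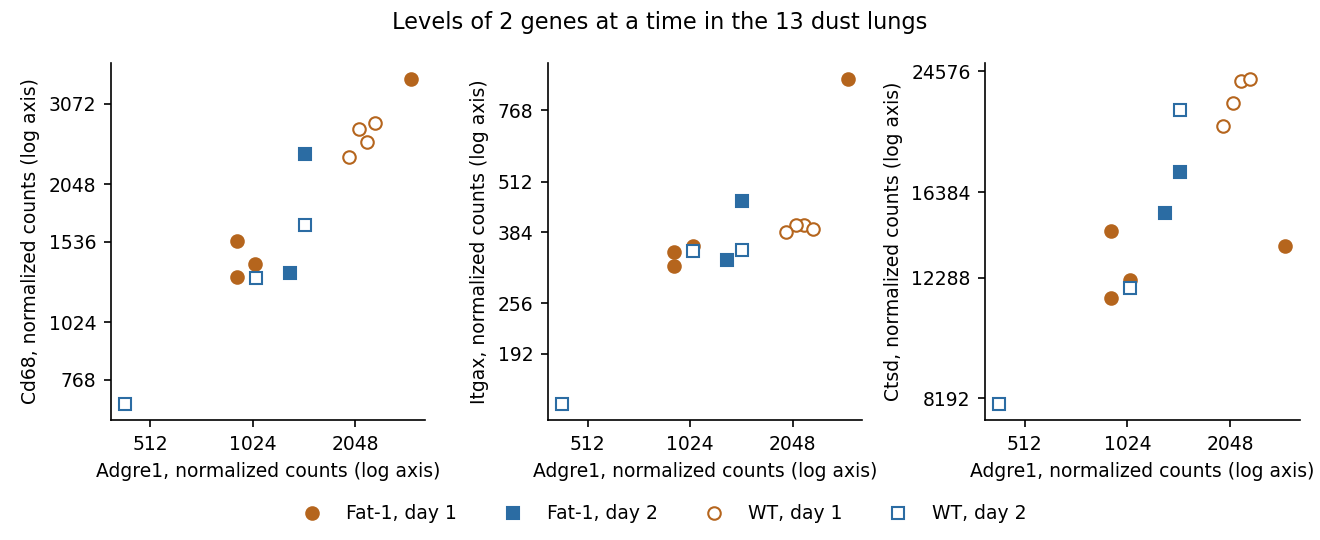
Levels of Cd68, Itgax and Ctsd against Adgre1 in the 13 dust lungs (normalized counts, log axes), with shape and colour for the day and filled points for Fat-1. Points follow a line for Cd68 (r = 0.96). For Itgax (r = 0.84) and Ctsd (r = 0.79) Fat-1 female dust lung 2 of day 1 lies apart at the right.

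The genes most like each member over the dust lungs were taken from the other genes above the floor in every lung, by Pearson r on the log2 scale, as a description. For Adgre1 they were Cybb (r = 0.96), a subunit of the phagocyte NADPH oxidase, Alox5ap (0.96), which serves leukotriene synthesis, and C1qc (0.95), a chain of complement C1q. For Cd68 they were Csf1r (0.96), the receptor of macrophage colony-stimulating factor, Csf2ra (0.96), a receptor chain for GM-CSF, and C3ar1 (0.95), the C3a receptor. For Itgax they were Cd274 (0.94), which encodes PD-L1, Tnfrsf1b (0.93), a receptor for tumour necrosis factor, and Stat5a (0.92), a transcription factor downstream of cytokine receptors. For Ctsd they were Laptm5 (0.93), a lysosomal membrane protein of leukocytes, Mpeg1 (0.93), a pore-forming protein of macrophages, and Gusb (0.91), the lysosomal beta-glucuronidase. In saline lungs the same 12 values ran from 0.37 for Stat5a to 0.83 for Cybb.

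Most other lysosomal genes on the panel were higher in dust lungs too. Of 8 further genes of the lysosome list on the panel, 6 passed as higher and 0 as lower, where 43.3% of all genes tested passed as higher. The median change was 0.52 against 0.26 over all genes. In a list this short the count stands little above that share. Ctss, the cathepsin of antigen-presenting cells, averaged 6201 ± 2799 normalized counts in dust lungs and 1578 ± 308 in saline lungs (SD, n = 13 and 10), a change of 1.85 (limma adjusted p = 1.6e-05). Laptm5 changed by 0.92, Gusb by 0.82 and Lipa, the lysosomal acid lipase, by 0.45. Ctsl, another cathepsin, was at 0.29 (limma adjusted p = 0.0571), and Ctsa, at the floor in 6 of 13 dust and 4 of 10 saline lungs, at −0.13 (limma adjusted p = 0.568).

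Of 16 further macrophage surface genes 12 passed as higher and 1 as lower, against 43.3% and 9.99% of all genes tested. Their median change was 1.02. Trem2, a lipid-sensing receptor, changed by 2.54, Itgam by 2.09, Clec7a, the beta-glucan receptor dectin-1, by 1.97 and Marco, a scavenger receptor of alveolar macrophages, by 1.70. The gene that fell was Cd36, a fatty acid transporter that endothelium also makes, by 0.72, with 6045 ± 1794 normalized counts in dust lungs and 9598 ± 1765 in saline lungs (SD, n = 13 and 10). Mertk, Cd163 and Timd4, which mark resident tissue macrophages, were at 0.11, −0.17 and 0.19 and did not pass. Cd163 (means of 36.1 in dust and 39.2 in saline lungs) and Timd4 (41.7 and 36.8) were near the floor, where a change could be missed. Cd163 was at the floor in 3 of 13 dust and 2 of 10 saline lungs, and Timd4 in 3 of 10 saline lungs.

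Integrin genes related to Itgax were also higher in dust lungs. Itgb2, the beta chain it pairs with, changed by 1.44. Itgam and Itgal, other alpha chains of Itgb2, changed by 2.09 and 0.87, and all 3 passed. Icam1, a ligand of these integrins, was at 0.30 (limma adjusted p = 0.0517). Thus 3 of 4 genes of this list passed as higher and 0 as lower, with a median of 1.15. Against 43.3% of all genes tested, and with Itgam also in the surface list, this count is no result of its own. Of 12 growth and lineage factors of macrophages 9 passed as higher and 1 as lower, against the same 43.3% called higher, with a median of 0.71. Csf2ra changed by 1.40, Csf1r by 0.96 and Cebpb by 0.87. Klf4, a transcription factor also active in endothelium, fell by 0.62. Pparg, needed for alveolar macrophage identity, and Cebpa were at 0.06 and −0.03 and did not pass.

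**Figure D5:**
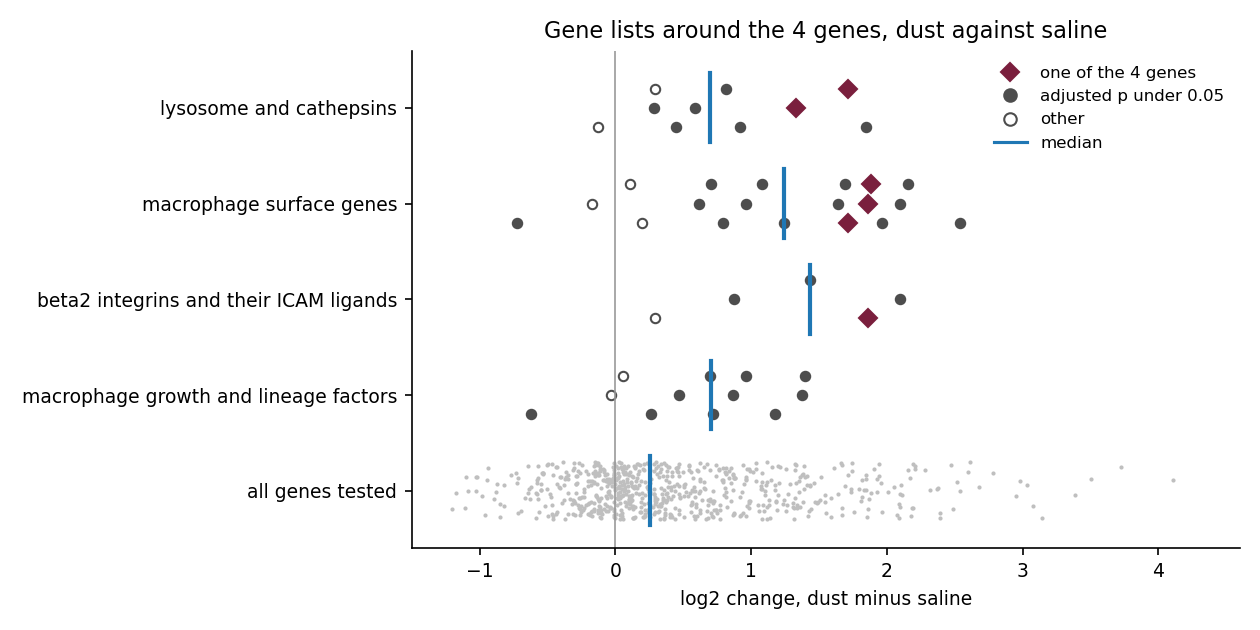
Log2 change, dust minus saline, of each gene in 4 lists (filled when the adjusted p was under 0.05), with the 4 genes as diamonds, and of all 711 genes tested in the bottom row. Blue bars are medians, here with the 4 genes included. The diamonds lie between 1.33 and 1.88, right of the median of all genes (0.26).

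Markers of other cell types were counted against the 43.3% of all genes called higher. Beside it, counts of 4 of 7 dendritic cell, 4 of 8 neutrophil and 2 of 6 eosinophil markers show nothing by themselves. The lists are short, and the part of any of these cells in the result was not tested. Of alveolar macrophage markers other than Itgax, 6 of 9 passed as higher and 0 as lower. The summed level of that list, Itgax included, ran from 9419 to 44378 normalized counts in dust lungs and from 7716 to 21775 in saline lungs. Most of that sum was Chil3, a secreted chitinase-like protein, at 21363 ± 8750.4 in dust lungs and 8447 ± 3931 in saline lungs (SD, n = 13 and 10). The sum thus mainly follows this 1 gene. Its lowest dust lung was Fat-1 female dust lung 2 of day 1, the highest of all lungs for Adgre1, Cd68 and Itgax itself. Of monocyte and interstitial macrophage markers 11 of 14 passed as higher, and the sum ran from 9982 to 26618 in dust lungs against 8970.3 to 12044 in saline lungs. The lowest dust lung there was WT female dust lung 2 of day 2, the lung at the saline level for Adgre1. A large part of this sum was Ly6c1, at 6082 ± 1692 in dust lungs and 5865 ± 861 in saline lungs (SD, n = 13 and 10). Ly6c1 did not pass (0.02, limma adjusted p = 0.941). Itgam, Csf1r and others of these markers are also in the surface list, so the 2 counts are not separate. Neutrophil markers passed as higher for 4 of 8, with a sum of 1498 to 40785 in dust lungs (median 13156) and 1522 to 3416 in saline lungs (median 2068). Those that passed changed by 2.78 (Cxcr2), 2.62 (Csf3r), 2.49 (S100a8) and 2.18 (S100a9). Among those that did not pass, Mpo, Camp and Ctsg were at the floor in 12, 11 and 13 of 13 dust lungs. Elane was at the floor in every lung, and Ly6g, which defines mature neutrophils, in 9 of 13 dust and 10 of 10 saline lungs. Dendritic cell markers passed as higher for 4 of 7, with a sum of 559 to 993 in dust lungs and 485 to 732 in saline lungs. Eosinophil markers passed for 2 of 6, with a sum of 294 to 677 in dust lungs and 239 to 447 in saline lungs, and Epx, which defines eosinophils, was at the floor in every lung.

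Markers of non-myeloid cells were above the floor too, and they moved in both directions. The 3 endothelial markers, Cdh5, Tek and Thbd, all fell, with a sum of 1837 to 7696 in dust lungs and 7065 to 9610 in saline lungs. Of 3 fibroblast markers 2 passed as higher, with a sum of 4246 to 11047 in dust lungs and 3085 to 5053 in saline lungs. Of 2 epithelial markers 1 passed as higher (Lamp3, at 0.29), with a sum of 8120 to 12950 in dust lungs and 7049 to 11532 in saline lungs. B cell markers passed for 0 of 2 (limma, each with unadjusted p over 0.05), with a sum of 183 to 779 in dust lungs and 237 to 516 in saline lungs. Of 3 T and NK cell markers, 1 (Gzma) passed as lower, with a sum of 194 to 579 in dust lungs and 315 to 658 in saline lungs.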

How the data were processed

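RNA of 23 left lungs was counted on a NanoString nCounter mouse myeloid panel, code set version 2 per the file headers. The deposited values are a signal. Per the values themselves, the authors multiplied each lung's probe counts by a scale factor (0.6822 to 4.2132) and set low values to 20. The cut lay at 20 probe counts in lungs with a factor above 1, and at a value of 20 in the others. Neither the software nor the genes behind the factor is given in the labels or headers. Dividing by the factor gave whole numbers for 100% of values above the floor, within 0.1 steps. Since the floor hides low counts, no count model was used.

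Groups follow the extract code (day, genotype, sex, exposure, number). limma 3.58.1 (R 4.3.3) was fitted to log2(value + 1) with 8 group means, two-sided, with Benjamini-Hochberg adjustment over 711 genes. The 43 genes at the floor in every lung were left out. Contrasts of day came from group means plus day and a day-by-dust term, and genotype contrasts within a day from a fit added later with a day shift for each genotype and exposure. Ratios and correlations were tested over lungs by permutation (100000 resamples, or exact within a day) with Python 3.11.15 and scipy 1.17.1. The fit was tested on simulated data. The named genes are the 4 genes, the 3 most correlated with each, and up to 4 per list, of which 1 is not reported here. The genes and lists were chosen with earlier results of these data known. Replicate numbers did not pair lungs: 24 of 65 pairs of lungs with the same day and number had a correlation of deviations over 0.1 (median −0.01). No sample column was left out.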

Additional observations from a re-analysis of the deposited data

Results flagged for a closer look

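Of 48 combinations of gene and group examined, 10 held a lung far from the others of its group by Dixon's criterion, and chance gives about 1 in 20. They come from 3 lungs. Fat-1 female dust lung 2 of day 1 had 2980.71 normalized counts of Adgre1, the other Fat-1 dust lungs being at 919 to 1458, and stood apart among all 6 of them and among the 4 of day 1. It had 917.14 of Itgax, the rest being at 317 to 458 among Fat-1 dust lungs and 317 to 400.05 among dust lungs of day 1, and stood apart in both groups and among the 4 Fat-1 dust lungs of day 1. Its Cd68 of 3474.73 stood apart among the Fat-1 dust lungs of day 1, the others being at 1287 to 1542. WT female dust lung 2 of day 2 had 144.34 of Itgax, against 345 to 400.05 in the other WT dust lungs. Its Ctsd of 8044.9 stood apart among the WT female dust lungs, the others being at 21601 to 23928. WT female saline lung 1 of day 2 had 187.33 of Itgax, against 65.8 to 96.2 in the other WT saline lungs and 65.8 to 129.95 in the other saline lungs.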

How the results depend on the processing

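The rise of the 4 genes in dust lungs kept its direction under all 20 other settings and without any 1 lung, and its side of the threshold except within day 2 and, for Adgre1 and Cd68, within cartridge 2. Within day 2 the changes for Adgre1, Cd68, Ctsd and Itgax were 1.57, 1.35, 1.20 and 1.49 over all lungs, 1.92, 1.69, 1.34 and 1.88 in Fat-1 lungs and 1.21, 1.02, 1.06 and 1.10 in WT lungs, none passing with so few lungs. Within cartridge 2 Adgre1 was at 1.91 and Cd68 at 1.66. Counts of genes called higher and lower were 3 and 0 within day 2, 27 and 1 within cartridge 2, 169 and 20 within cartridge 1, and 202 and 244 after median centring. Lower calls numbered 125 and 115 under centring on the median housekeeping gene and housekeeping scaling, and 37 both without the 4 lungs whose labels disagree and with a replicate block, which gave dust changes of 1.62, 1.51, 1.25 and 1.69 for Adgre1, Cd68, Ctsd and Itgax.
The difference of day 2 minus day 1 in dust lungs passed without the 2 lungs with a saturation message (Adgre1 −1.04, Cd68 −1.05, and the Cd68 difference of the dust response −1.19), without the 4 lungs with unusual technical measures (−0.92 for both) and with the cartridge as a block (Cd68 −0.98). With that block, day 2 minus day 1 in saline lungs was −0.48 for Adgre1, −0.32 for Cd68 and −0.44 for Ctsd.
The genotype, sex and ratio values given next changed sign against those reported, and none of them passed the test under the setting named. Here the 2 lungs in doubt, or doubtful lungs, are Fat-1 female dust lung 2 of day 1 and WT female saline lung 1 of day 2. The 4 unusual lungs are these and the 2 lungs with a saturation message. Fat-1 minus WT in dust lungs was 0.61, 0.60 and 0.39 for Adgre1, Cd68 and Ctsd within day 2, and for Cd68 0.05 with housekeeping-median centring and 0.01 with groups by the characteristics. On day 1 it was −0.25 for Itgax without the 2 lungs in doubt and −0.20 without the 4 unusual lungs. On day 2, without the 2 saturation lungs, it was −0.11 for Cd68 and −0.10 for Itgax, and the Itgax difference between the days −0.24. Fat-1 minus WT in saline lungs was 0.04 for Adgre1 within day 1 and 0.07 without the saturation lungs. For Ctsd it was −0.13 within day 1 and without the disagreeing lungs, −0.09 by the characteristics, −0.01 with the cartridge block and −0.00 without the lungs in doubt. For Itgax it was −0.31 within day 2 and −0.01 by the characteristics. The difference of the dust response, Fat-1 minus WT, was 0.71 within day 2, 0.06 by the characteristics and 0.02 without the disagreeing lungs for Adgre1. For Cd68 it was −0.32 within day 1, −0.04 with the replicate block, −0.16, −0.15 and −0.36 without the doubtful, saturation and 4 unusual lungs. For Itgax it was −0.46 within day 1, −0.37 without the doubtful and −0.51 without the 4 unusual lungs, and for Ctsd 0.28 within day 2. Female minus male in dust lungs was −0.27 within day 2 and −0.07 without the doubtful lungs for Adgre1. For Cd68 it was 0.35 within day 1, 0.03 with the replicate block and 0.07 without the saturation lungs. For Ctsd it was 0.09 within day 1, 0.02 by the characteristics, 0.06 with the replicate block and 0.05 without the saturation or the 4 unusual lungs. For Itgax it was −0.55 within day 2, −0.01 by the characteristics, and −0.04, −0.22 and −0.15 without the disagreeing, doubtful and 4 unusual lungs. The difference of the dust response, female minus male, was for Adgre1 −0.01 within day 1, −0.07 within day 2, −0.25 without the doubtful and −0.27 without the 4 unusual lungs, and for Itgax 0.24 within day 1. For Ctsd it was 0.17 within day 2, 0.11 with housekeeping-median centring, 0.01 with housekeeping scaling or the day as a block, 0.25 with the replicate block, 0.004 by the characteristics and 0.07 without the disagreeing lungs. The ratio of Adgre1 over Itgax differed by −0.04 within day 1, −0.01 within day 2 and −0.05 without the doubtful lungs. The cause of these changes was not tested.
Leaving out each lung in turn gave these ranges. In dust lungs Fat-1 minus WT ran from −0.29 to 0.06 for Cd68, on day 1 from −0.25 to 0.34 for Itgax, and on day 2 from −0.11 to 1.38 for Cd68 and −0.10 to 1.18 for Itgax, and its Itgax difference between the days from −0.24 to 1.04. In saline lungs it ran from −0.17 to 0.07 for Adgre1, −0.04 to 0.13 for Ctsd and −0.21 to 0.45 for Itgax. The genotype difference of the response ran from −0.38 to 0.05 for Adgre1, −0.18 to 0.17 for Cd68 and −0.13 to 0.52 for Itgax. Female minus male in dust ran from −0.07 to 0.43, −0.29 to 0.16, −0.16 to 0.17 and −0.22 to 0.19 for Adgre1, Cd68, Ctsd and Itgax, and the sex difference of the response from −0.17 to 0.33 for Adgre1, −0.16 to 0.17 for Ctsd and −0.51 to 0.15 for Itgax. Day 2 minus day 1 ran from −1.04 to −0.34 for Adgre1 and −1.05 to −0.40 for Cd68 in dust lungs, from −0.06 to 0.28 for Adgre1 and −0.10 to 0.18 for Ctsd in saline lungs, and the Cd68 day difference of the response from −1.25 to −0.60.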
